A study of Rattus norvegicus with 18 samples.

Results

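The genes described here encode the proteins of the cytosolic ribosome. They were chosen by name, as the rows of the mRNA count table whose RefSeq symbol begins with *Rps* or *Rpl* and a number, together with *Rpsa*, *Rplp0*, *Rplp1* and *Rplp2*, and without the *Rps6k* kinases. This gave 81 of the 15075 rows, of which 33 were named for the small subunit (*Rps* and *Rpsa*) and 48 for the large subunit (*Rpl*). No measured value entered this choice. Of the 81 genes, 9 carried a name that marks a like copy of another (*Rpl3l*, *Rpl22l1*, *Rpl27l2*, *Rpl36al1*, *Rpl37l1*, *Rpl39l1*, *Rps12l4*, *Rps27l* and *Rps4y2*).

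The libraries hold poly(A) RNA of 18 Lister Hooded rats, taken from C6-C8 dorsal root ganglia (DRG), which hold the cell bodies of forelimb sensory neurons, with the ganglia of the treated side of a rat pooled into 1 library. The 6 naïve rats (41, 42, 43, 44, 45 and 49) were unoperated. The other rats had both corticospinal tracts cut in the medullary pyramids (bilateral pyramidotomy, bPYX) and received, on the next day, injections into the forelimb flexor muscles of 1 side of AAV1-CMV-EGFP (bPYX+GFP; rats 5, 15, 18, 21, 52 and 57) or of AAV1-CMV-NT3 (bPYX+NT3; rats 2, 11, 17, 23, 39 and 40), a viral vector encoding human neurotrophin-3, and DRG were taken 10 weeks after injury. The CMV promoter that drives both transgenes is not restricted to 1 cell type, no unoperated rat received a vector and no injured rat went without one, so injury and vector cannot be told apart in the comparisons with naïve rats. Rats were grouped by the numbers that head the count table, because the titles under which the counts of single rats are recorded name another group for 17 of the 18 rats. The DRG label was checked against its defining markers. The summed level of 12 sensory neuron genes (such as *Nefh* and *Scn9a*) ranged from 12626 to 16724 counts per 1000000 read-pairs on genes (CPM) over the 18 rats, that of 8 Schwann cell genes from 2095 to 3663, and that of 5 skeletal muscle genes from 1.26 to 10.6.

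Each ribosome has a small subunit, which holds and decodes the mRNA, and a large subunit, which joins amino acids and lets the new chain out through an exit tunnel. Leaving aside the like copies and the acidic stalk proteins P1 and P2, each protein described here is present in a single copy in most ribosomes. Cells therefore need the mRNAs of these proteins in matched amounts. Many of these mRNAs begin with a C followed by a run of pyrimidines, the 5′ terminal oligopyrimidine (5′ TOP) motif, through which mTOR signalling controls their translation. Ribosomal protein genes are also known for their large numbers of processed pseudogenes, and reads that match several copies were not counted here.

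The sequence around the annotated start of transcription is shown for genes on which the results below turn. For 64 of the 81 genes RefSeq's table (build GRCr8) held 1 promoter under the symbol, for 1 (*Rps27a*) it held more than 1, and 16 had none. Windows of 30 bases are given, with 12 bases before the start and 18 from the start on, and capitals mark the longest run of C and T that touches the bases from 2 before to 3 after the start. These choices were made after the sequences had been seen. The first 4 genes were among those that varied most between rats, the next 2 were among those that varied least, and the last 2 had almost no reads.
Rps15 (chr7:10068098-10068127, minus strand): tgacaccgCTTCCTTTTCCCagcagccgcc
Rpl28 (chr1:78083515-78083544, minus strand): cgcccctagtgTCTTTCTTTCCgtctccgg
Rps18 (chr20:4933733-4933762, plus strand): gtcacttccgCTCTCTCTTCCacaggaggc
Rps28 (chr7:15311316-15311345, minus strand): tcccctgctcaCgtgactcctctccgctag
Rpl4 (chr8:73566465-73566494, plus strand): gTTCTTCCTTTTCCTgtgggagcagccggg
Rpl5 (chr14:1995208-1995237, minus strand): ctctttcccacgtcgCTTgcgtcctggagg
Rps6 (chr5:106420523-106420552, minus strand): gcctcctaggcggTCggctgtgtcaagatg
Rps19 (chr1:89608676-89608705, plus strand): gacttgtgcgCCCgggaaaccccgtcgttc

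Of the 64 promoters, 39 (60.9%) had such a run of at least 6 letters, beside 14.3% of the 33469 promoters of all genes. The annotated start base was C in 32 of the 64 (50%) and in 24.1% of all promoters. The letters CTTTC were sought anywhere in the window, inside or outside the marked run. They were on the gene's strand in 26 of the 64 (40.6%) and in 3.50% of all promoters. On the other strand (GAAAG) they were in 1 (1.56%) and in 3.82%. *Rps15*, *Rpl28* and *Rps18* shown above had a run, whereas *Rps28*, which also varied widely, had none of that length. Nor did *Rpl36* (a run of 2) and *Rpl39l1* (a run of 4), which varied more than *Rpl28*, *Rps18* and *Rps28*. Among the 57 tested genes with a promoter, the median SD of the log2 level over rats, described below, was 0.17 for the 38 with a run and 0.20 for the 19 without. A match in these letters is a description of the annotated start and not a measured start of transcription.

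The ribosomal protein genes took up a small part of the libraries, and a few were nearly without reads. Together they held 0.794% to 1.13% of the 10057787 to 16002410 read-pairs counted on genes per rat (median 0.913%). The number of read-pairs in the median rat was over 1000 for 42 of the 81 genes and below 100 for 12. *Rpl4* had the most, with 5071 to 8853 read-pairs per rat, followed by *Rps3a* (4796 to 7817) and *Rpl5* (3703 to 6663), whose product binds the 5S rRNA. These are numbers of read-pairs and not levels per length, since no transcript lengths were used here.

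**Figure D1:**
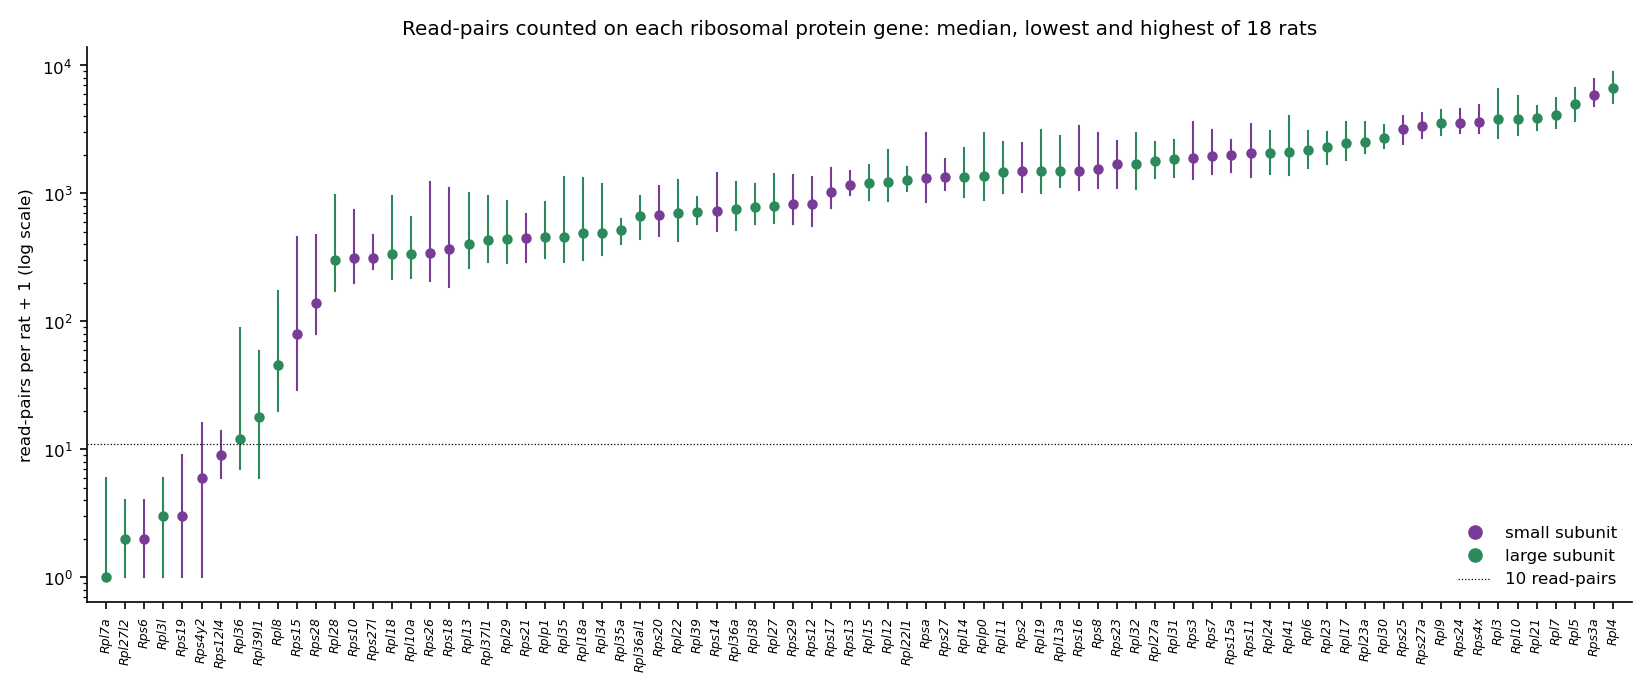
Read-pairs per rat plus 1 (log axis) for 80 of the ribosomal protein genes, in order of the median; points are medians and lines run from the lowest to the highest of 18 rats. The 7 genes at the left stayed at or below 15 read-pairs in every rat, while 42 genes had a median over 1000.

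Of the 81 genes, 8 did not have more than 10 read-pairs in at least 6 of the 12 rats of any comparison and were not tested. They included *Rpl7a* (0 to 5 read-pairs per rat), *Rps6* (0 to 3), *Rps19* (0 to 8), *Rpl27l2* (0 to 3), *Rpl3l* (0 to 5), *Rps4y2* (0 to 15) and *Rps12l4* (5 to 13). *Rpl7a*, *Rps6* and *Rps19* are standard components of the ribosome, and *Rps6* encodes the protein that S6 kinases phosphorylate downstream of mTOR. *Rpl3l*, by contrast, is known from striated muscle. Of the genes that were tested, *Rpl36* (6 to 87), *Rpl39l1* (5 to 58), *Rpl8* (19 to 171) and *Rps15* (28 to 457) had fewer than 100 read-pairs in the median rat. *Rplp2* and *Rpl37a* were listed at 0 read-pairs in the counts of all 18 rats and were not in the table of the series.

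The counts give the read-pairs that matched several locations as 1 total per rat, from 19.0% to 22.3% of all read-pairs in the counts, and not per gene. The annotation names 850 pseudogene loci for 73 of the 81 genes. Genes with many such loci were found both among those with many reads and among those with few. *Rps2*, with 36 pseudogene loci, had a median of 1488 read-pairs, *Rps27a* with 29 had 3389 and *Rpl9* with 27 had 3530.5, whereas *Rpl7a* with 20 had 0, *Rps19* with 15 had 2 and *Rpl8* with 5 had 45. Leaving out the 9 like copies, the genes that were not tested had a median of 13 pseudogene loci and the 68 that were tested a median of 11 (1 to 36). Across these 72 genes, which share the same libraries, Spearman's rho between median read-pairs and pseudogene loci was 0.11. Whether reads that matched several copies are why a given gene had few reads was not tested.

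Whether ribosomal protein mRNAs differed after injury was asked by comparing bPYX+GFP with naïve rats. By the quasi-likelihood test of edgeR, 0 of the 73 genes tested had a p under 0.05, whether unadjusted or adjusted. Over all genes 377 of 11601 (3.25%) passed unadjusted and 0% adjusted. The number of ribosomal protein genes was also 0 with edgeR's likelihood ratio test and with DESeq2, which gave 13 and 16 adjusted calls over all genes. The median log2 fold change was 0.020 over the ribosomal protein genes (60 of 73 above 0) and 0.012 over all genes, and it was below 0 without naïve rat 45, naïve rat 49 or rat 57 (-0.0023, -0.0066 and -0.020). The 28 small subunit genes had a median of 0.019 and the 45 large subunit genes one of 0.023. The 95% interval of the fold change lay within a 2-fold change in either direction for 70 of the 73 genes, the other 3 being *Rps15*, *Rpl36* and *Rpl39l1*, which had few reads. In the same comparison 4 of 8 Schwann cell genes (*Cnp*, *Egr2*, *Gldn* and *Pmp22*) and 3 of 5 fibroblast genes (*Col1a1*, *Col3a1* and *Lum*) were lower at an unadjusted p under 0.05. The summed level of the Schwann cell genes ranged from 2446 to 3663 CPM in naïve and from 2095 to 3325 CPM in bPYX+GFP rats, and that of the fibroblast genes from 2120 to 3118 and from 1938 to 2544 CPM. The part of these cells in the ribosomal protein levels was not tested.

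The smallest p belonged to *Rpl39l1*, a copy of *Rpl39*, whose product lines the exit tunnel. The lowest, median and highest normalized counts of *Rpl39l1* were 7.44, 17.4 and 51.3 in naïve rats (mean 22.6 ± 16.4, SD, n = 6), 4.84, 13.5 and 27.2 in bPYX+GFP rats (mean 15.9 ± 9.13, SD, n = 6) and 7.25, 19.4 and 35.8 in bPYX+NT3 rats (mean 21.01 ± 11.6, SD, n = 6). The ranges of the groups overlapped, and the log2 fold change from naïve to bPYX+GFP rats was -0.55 ± 0.48 (SE, adjusted p = 0.9998, edgeR). *Rplp1* encodes 1 of the acidic stalk proteins that recruit elongation factors to the large subunit. Normalized counts of *Rplp1* (lowest, median and highest rat) were 403, 447 and 529 in naïve rats (mean 456 ± 43.8, SD, n = 6), 416, 485 and 520.1 in bPYX+GFP rats (mean 477 ± 37.5, SD, n = 6) and 396, 488 and 665 in bPYX+NT3 rats (mean 504 ± 105, SD, n = 6). The log2 fold change of *Rplp1* was 0.07 ± 0.08 and that of *Rplp0*, the protein that anchors the stalk, was 0.02 ± 0.16. *Rps21*, a small subunit gene, had the second smallest p, with a log2 fold change of 0.08 ± 0.08. Their adjusted p was also 0.9998.

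With NT3, 0 of 73 genes differed from naïve rats at an unadjusted p under 0.05 and 0 at an adjusted one, beside 703 of 11693 genes (6.01%) and 0% over all genes. The median log2 fold change was 0.099 over the ribosomal protein genes (51 of 73 above 0) and 0.00051 over all genes. Without rat 11 of the bPYX+NT3 group, that median was 0.0085. Rat 11 had the highest level of 48 of the 73 genes (65.8%), beside 24.3% of 11543 genes. The lowest, median and highest normalized counts of *Rps28* were 95.6, 127 and 212 in naïve rats (mean 145 ± 51.999, SD, n = 6), 100.2, 134 and 309 in bPYX+GFP rats (mean 157 ± 77.4, SD, n = 6) and 142, 171 and 371 in bPYX+NT3 rats (mean 202 ± 86.1, SD, n = 6). *Rps28* encodes a small subunit protein near the exit of the mRNA. All bPYX+NT3 rats lay above the naïve median, but the 2 groups overlapped, and the log2 fold change was 0.48 ± 0.27 (95% interval -0.09 to 1.05, adjusted p = 0.607, edgeR). *Rps28* passed at an unadjusted p under 0.05 without naïve rat 41 (log2 fold change 0.62, adjusted p = 0.434, with 10.2% of all genes called) and without naïve rat 42 (0.62, adjusted p = 0.438, with 8.88% called).

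*Rps21* had the smallest p in this comparison. Its lowest, median and highest normalized counts were 332, 409 and 455 in naïve rats (mean 404 ± 43.4, SD, n = 6), 367, 439 and 452 in bPYX+GFP rats (mean 425 ± 34.3, SD, n = 6) and 409, 445 and 538 in bPYX+NT3 rats (mean 451 ± 47.8, SD, n = 6). Its log2 fold change was 0.16 ± 0.09 (adjusted p = 0.607, edgeR), and the ranges of the 2 groups overlapped. *Rpl35*, whose product sits beside the mouth of the exit tunnel, had a log2 fold change of 0.39 ± 0.22 (adjusted p = 0.607). The widest intervals were again those of the genes with few reads. For *Rps15* the interval ran from -0.35 to 1.79 and for *Rpl36* from -0.30 to 1.84 on the log2 scale, whereas for *Rpl4* it ran from -0.12 to 0.11 and for *Rpl5* from -0.13 to 0.12. A 2-fold difference lay outside the interval for 68 of the 73 genes.

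The effect of NT3 after injury was asked by comparing bPYX+NT3 with bPYX+GFP rats. Again 0 of 73 genes had an unadjusted p under 0.05 and 0 an adjusted one, beside 201 of 11623 genes (1.73%) and 0% over all genes. The median log2 fold change was 0.077 over the ribosomal protein genes (52 of 73 above 0) and 0.0049 over all genes, and it was -0.019 without rat 11. For *Rps13*, the lowest, median and highest normalized counts were 1141, 1229 and 1333 in naïve rats (mean 1221 ± 71.2, SD, n = 6), 965, 1268 and 1328 in bPYX+GFP rats (mean 1219 ± 132, SD, n = 6) and 1022, 1103 and 1257 in bPYX+NT3 rats (mean 1127 ± 105, SD, n = 6). *Rps13*, a small subunit gene with the smallest p here, was lowest in rat 57 of the bPYX+GFP group, so that the GFP range enclosed the NT3 range. Its log2 fold change was -0.11 ± 0.08 (adjusted p = 0.851, edgeR). *Rps3*, part of the channel by which mRNA enters the small subunit, had one of 0.16 ± 0.12 and *Rpl14*, a large subunit gene, one of 0.11 ± 0.08, with the same adjusted p.

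**Figure D2:**
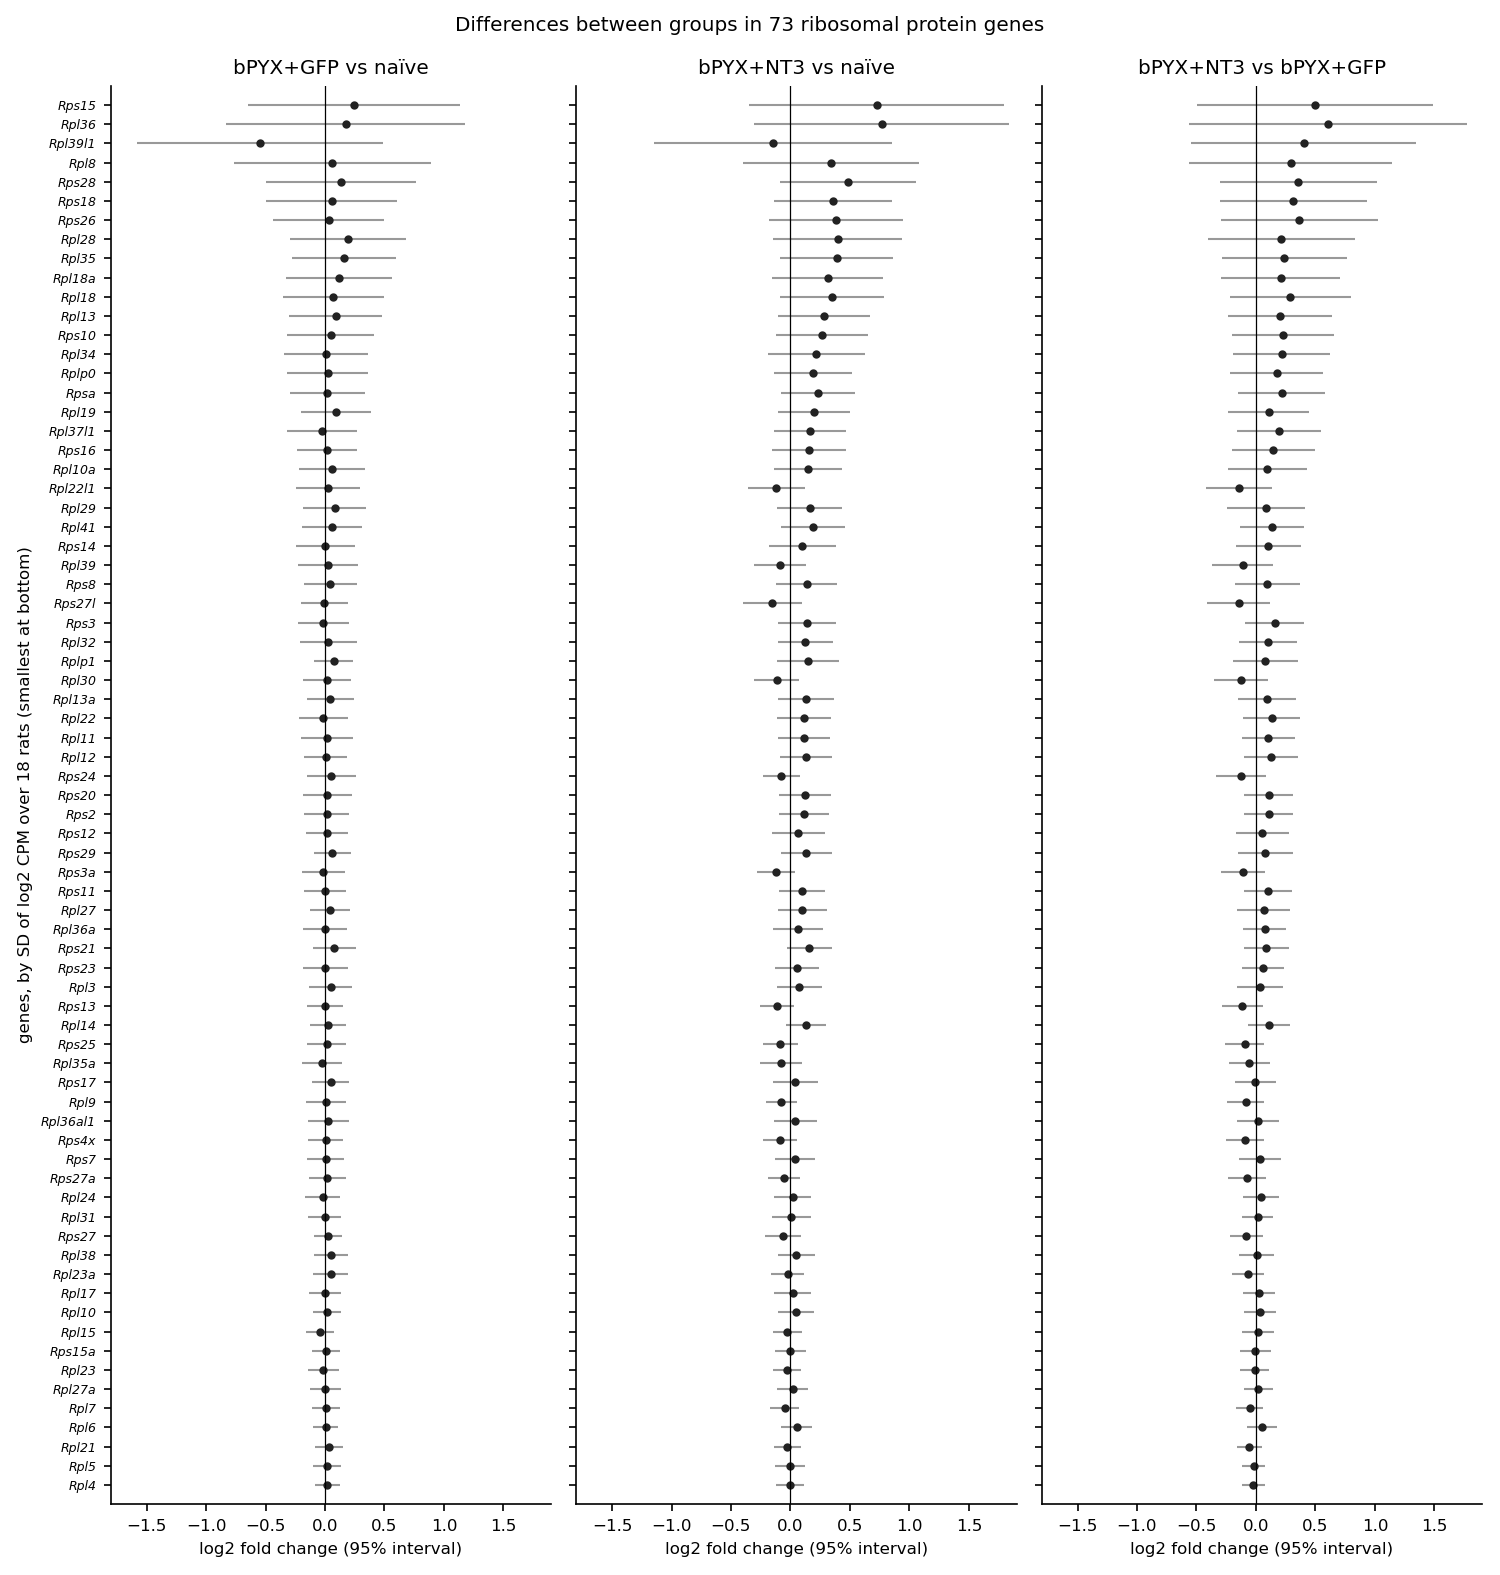
Log2 fold change (point) and 95% interval (line) of each of the 73 tested genes in the 3 comparisons, with genes in order of their SD over 18 rats. All intervals cross 0, and they are narrow for *Rpl4* at the bottom and wide for *Rps15* and *Rpl36* at the top.

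This comparison depended on rat 57 of the bPYX+GFP group. Without it, 13 of 73 ribosomal protein genes were higher and 8 lower in bPYX+NT3 rats at an unadjusted p under 0.05, beside 13.1% of all genes called higher and 6.77% called lower, and 0 genes had an adjusted p under 0.05. The genes that rose in this fit included *Rps28* (log2 fold change 0.68), *Rpsa* (0.35) and *Rpl36* (1.21). Those that fell included *Rps24* (-0.21), *Rpl9* (-0.15) and *Rps3a* (-0.17), and the adjusted p of these genes was 0.251 (edgeR). Without both rat 57 and rat 11, 10 of 72 genes passed (4 higher and 6 lower), beside 12.7% of all genes. *Rps28* was again among them (log2 fold change 0.41), as was *Rps24* (-0.18), each with adjusted p = 0.385. These genes were named after their values were seen. *Rps27l*, a copy of *Rps27*, fell without rat 17 against naïve rats (-0.24, adjusted p = 0.570, with 7.35% of all genes called) and against bPYX+GFP rats (-0.24, adjusted p = 0.883, with 1.08% called). In none of the 3 comparisons did the 2 groups fail to overlap for any of the 73 genes, beside 0.26%, 0.234% and 0.026% of 11543 genes, in the order of the comparisons above.

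The genes differed widely in how much they varied between rats. The SD of log2 CPM over 18 rats had a median of 0.17 over the 73 genes and of 0.21 over 11543 genes, but it was over 0.3 for 15 ribosomal protein genes and under 0.1 for 11. The largest were those of *Rps15* (0.87), *Rpl36* (0.84), *Rpl39l1* (0.81), *Rpl8* (0.66) and *Rps28* (0.54). The smallest were those of *Rpl4* (0.06), *Rpl5* (0.07), *Rpl21* (0.08), *Rpl6* (0.08) and *Rpl7* (0.08). Genes with fewer reads varied more, with a Spearman's rho of -0.73 between median read-pairs and SD across the 73 genes, which share their libraries. The SD of each gene was between 2.01 and 8.30 times the SD that Poisson counting gives at its mean.

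The lowest, median and highest normalized counts of *Rps15* were 36.2, 60.1 and 158 in naïve rats (mean 85.3 ± 56.7, SD, n = 6), 58.4, 84.4 and 206 in bPYX+GFP rats (mean 100.3 ± 54.4, SD, n = 6) and 48.3, 104 and 357 in bPYX+NT3 rats (mean 141 ± 114, SD, n = 6). *Rps15*, a protein of the head of the small subunit, thus varied 9.84-fold from its lowest rat (44) to its highest (11), and the ranges of the 3 groups overlapped. The lowest, median and highest normalized counts of *Rpl8* were 23.3, 46.5 and 94.0 in naïve rats (mean 50.6 ± 24.3, SD, n = 6), 24.1, 41.7 and 116 in bPYX+GFP rats (mean 51.9 ± 33.3, SD, n = 6) and 41.8, 51.1 and 133 in bPYX+NT3 rats (mean 63.9 ± 35.2, SD, n = 6). *Rpl8*, which lies at the centre where peptide bonds form, was also highest in rat 11 and, among bPYX+GFP rats, in rat 57. At the other end, the lowest, median and highest normalized counts of *Rpl4* were 6054, 6544 and 7097 in naïve rats (mean 6535 ± 415, SD, n = 6), 6399, 6643 and 6743 in bPYX+GFP rats (mean 6598 ± 143, SD, n = 6) and 6222, 6436 and 6839 in bPYX+NT3 rats (mean 6509 ± 264, SD, n = 6). The highest rat exceeded the lowest 1.17-fold for *Rpl4* and 1.20-fold for *Rpl5*.

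Much of the variation between rats was shared. With each gene centred on its group mean, Pearson's r between 2 of the 73 genes had a median of 0.64 over 2628 pairs (quartiles -0.092 and 0.86), beside 0.0013 over all pairs of 11543 genes. An r over 0.8 was found in 34.9% of the ribosomal pairs and in 6.89% of all pairs. The median was 0.63 within the small subunit, 0.63 within the large subunit and 0.64 between the subunits. Within lists of cell type markers the median r ran from -0.10 (4 satellite glia genes) to 0.93 (2 red blood cell genes). It was 0.64 for 9 macrophage and 0.77 for 5 fibroblast genes, so a median of this size was not particular to ribosomal protein genes. The first principal axis held 77.3% of the variance of the 73 genes, with 56 genes weighted above 0 and 17 below 0, and 48.1% of the variance of all genes. Genes were not scaled to equal variance, so this share rests mostly on the genes with the largest SDs. The weights were 0.39 for *Rps15* and 0.38 for *Rpl36*, but 0.012 for *Rpl4* and 0.0015 for *Rpl5*. All values within a rat share a library and its scaling. With library size alone in place of TMM, the median r was 0.79. Without rats 11 and 57 it was 0.60 over the other 16 rats, and the first axis held 61.9% of the variance.

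**Figure D3:**
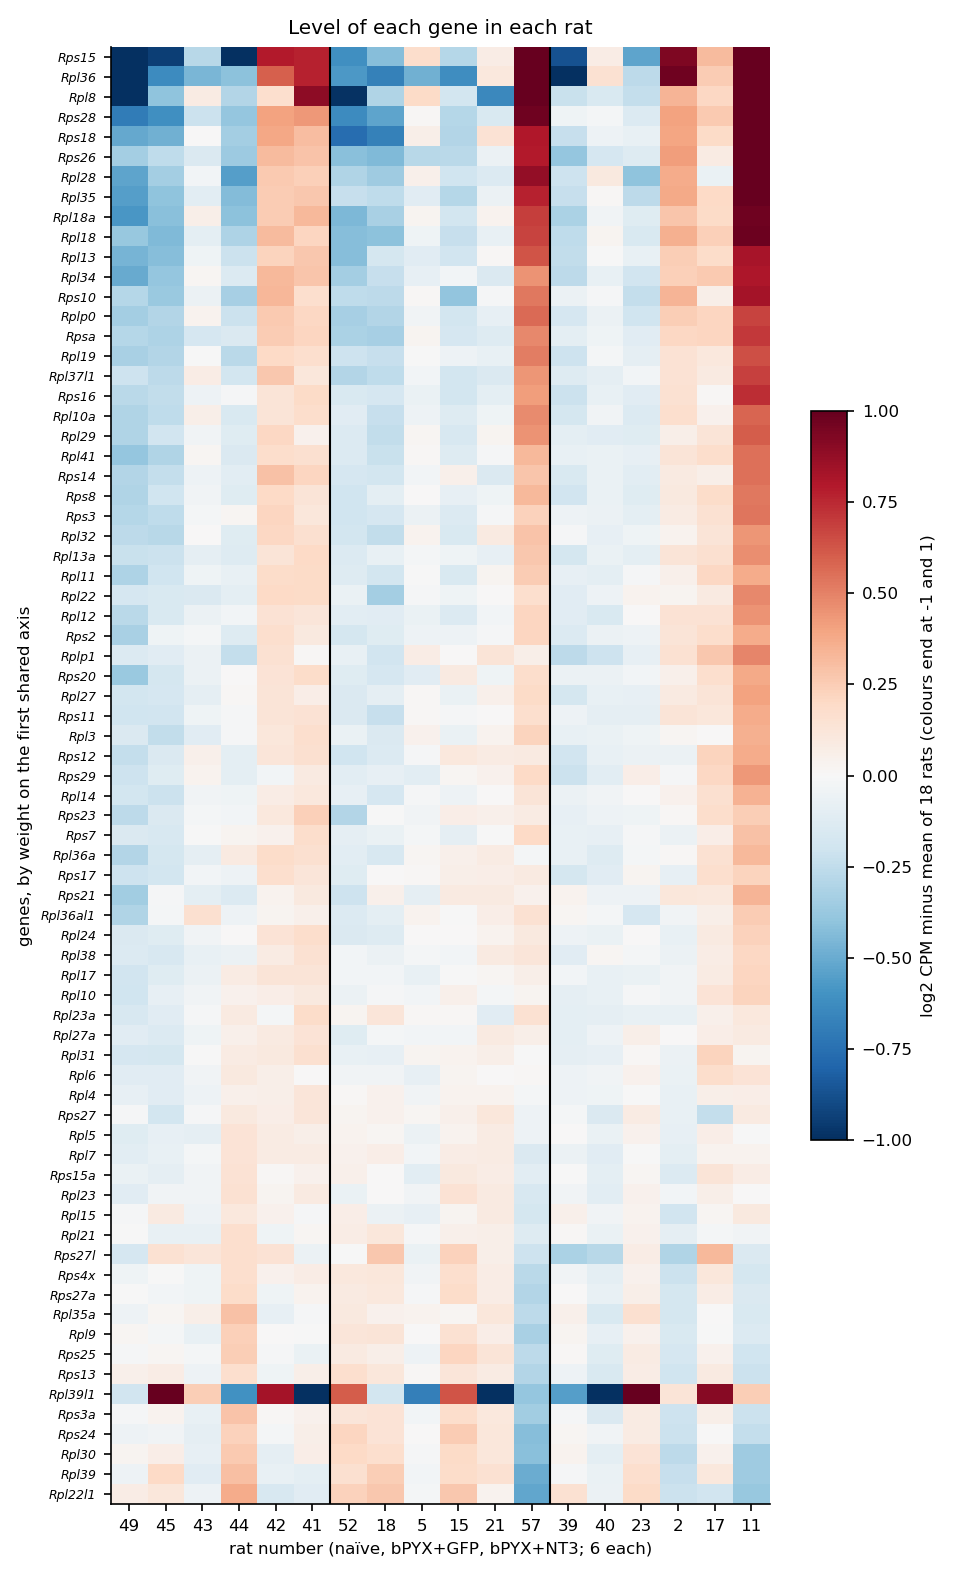
Log2 CPM of the 73 genes (rows, by weight on the first axis) in 18 rats (columns, within groups by the median of the genes), as difference from the mean of 18 rats. The upper genes are highest in rats 11 and 57 and the lowest rows, led by *Rpl22l1*, are lowest there.

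Rats 11 and 57 stood at the end of this axis and belonged to different groups. In rat 11 the median of the 73 genes was 0.39 above that of the other 5 bPYX+NT3 rats on the log2 scale. In rat 57 it was 0.18 above that of the other 5 bPYX+GFP rats. The medians of all genes were -0.0070 and -0.019. TMM scaling keeps the median of all genes close between rats, so these values cannot show whether other genes shifted. Both rats lay above all 16 others for 32 of the 73 genes and below all 16 for 7. Against their group means, 52 genes were higher in both rats and 13 lower in both. The same counts over all genes were not made, so these cannot be weighed against a background. Rat 11 was an extreme rat beyond these genes. It was the highest rat for 24.3% and the lowest for 20.9% of 11543 genes, beside 65.8% and 0% of the 73 genes. *Rpl36* was 1.61 and 1.53 above its group mean in rats 11 and 57, *Rpl8* 1.17 and 1.31, *Rps26* 1.15 and 0.91, and *Rps28* 0.95 and 1.08 (log2). *Rpl22l1* was at -0.30 and -0.56, *Rpl39* at -0.29 and -0.53, *Rpl30* at -0.27 and -0.46 and *Rps24* at -0.17 and -0.48. *Rps26*, *Rpl30* and *Rps24* were named after their values were seen. The 17 genes weighted below 0 had a median of 2309.5 read-pairs and the 56 above 0 one of 1127.25.

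The rats with high ribosomal protein levels also had few read-pairs outside annotated exons, that is, in introns or between genes. The 5 rats with the highest median over the 73 genes (11, 57, 41, 42 and 17, from 2 injured groups and the naïve group) were the 5 rats with the lowest share of read-pairs outside exons. That share was 30.8% in rat 11 and 31.7% in rat 57, and between 32.5% and 34.6% in the other rats. Beyond these 5 rats the order was looser. Rat 40 had the next lowest share (33.1%) but a median of -0.069 (log2, from the mean of 18 rats). Rat 49 had the highest share (34.6%) and the lowest median (-0.20). The share that matched several locations was 19.7% and 19.0% in rats 11 and 57 and from 20.7% to 22.3% in the others. With the share outside exons as a covariate, the median log2 fold change of the ribosomal protein genes was 0.0078 for bPYX+GFP and -0.017 for bPYX+NT3 against naïve rats, and -0.016 for NT3 against GFP. The summed level of the 12 sensory neuron genes was also highest in rats 57 and 11 within their groups, at 16724 and 16617 CPM beside medians of 13985 and 14301 CPM. That of 2 red blood cell genes was also highest there (89.2 and 135 CPM, group medians 55.1 and 47.3). Of the 8 other marker lists, rat 57 was the highest of its group for Schwann cell (3325 CPM), endothelium (241) and skeletal muscle genes (10.6) and the lowest for adipocyte genes (2.65), and rat 11 was the lowest of its group for fibroblast (1732) and oligodendrocyte genes (9.15). The part of these shares and cells in the levels of single genes was not tested. In these pooled ganglia, fewer cells of a type and less RNA per cell cannot be told apart.

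**Figure D4:**
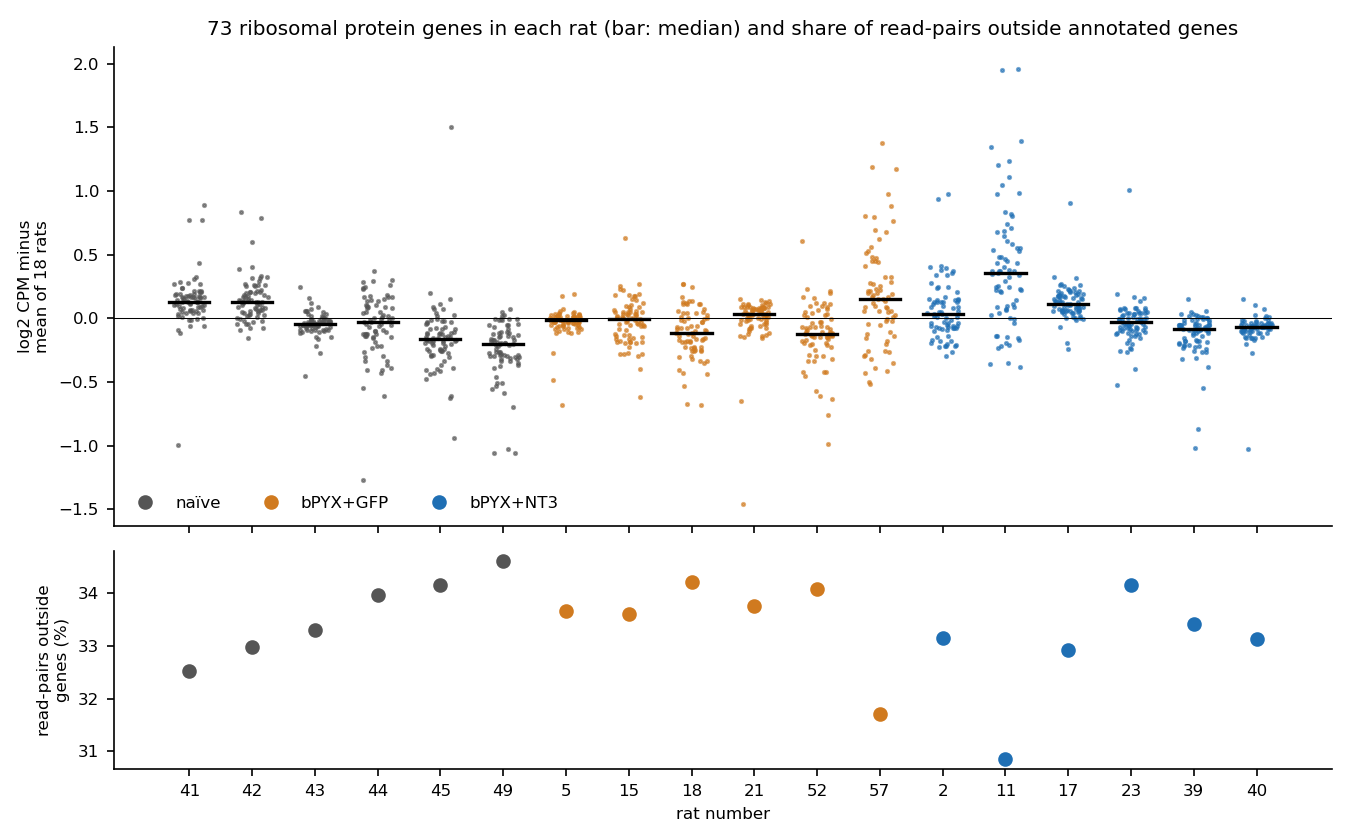
Above, log2 CPM of each of 73 ribosomal protein genes in each rat as difference from the mean of 18 rats (bar, median). Below, the percentage of read-pairs outside annotated exons (drawn under the label outside genes), which includes those in introns. Rats 11 and 57 have the widest spread of genes and the lowest percentages, 30.8% and 31.7%.

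The stalk genes *Rplp0* and *Rplp1* and the small subunit genes *Rps3* and *Rps20* were examined as pairs across the 18 rats, each centred on its group mean. For *Rplp0* with *Rplp1*, Pearson's r was 0.77 (permutation p = 0.00011) and Spearman's rho 0.82 (permutation p = 4e-05), and without the 2 rats farthest from the median of *Rplp0* (11 and 57) r was 0.80. For *Rps3* with *Rps20*, r was 0.90 and rho 0.90 (permutation p = 1e-05 for each, the smallest that 100000 resamples give), and r was 0.86 without rats 11 and 57. The adjusted p-values over the 2 pairs were 0.00011 and 2e-05 for r, and 4e-05 and 2e-05 for rho. These p-values are against no correlation, whereas pairs of the 73 genes had a median r of 0.64 and an upper quartile of 0.86. They therefore cannot show a relation particular to these 2 pairs. *Rplp0* ranged from 1147 to 1738 (median 1367) in naïve rats, from 1151 to 2142 (median 1325) in bPYX+GFP rats and from 1259 to 2314 (median 1536) in bPYX+NT3 rats, with rats 57 and 11 the highest of their groups. *Rps3* ranged from 1603 to 2267 (median 1955) in naïve rats, from 1702 to 2298 (median 1833) in bPYX+GFP rats and from 1833 to 2831 (median 1979) in bPYX+NT3 rats. *Rplp2* is not in the table, so its pairing with *Rplp1* could not be examined.

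Copies of the same protein did not all vary with their partners. *Rpl22*, an RNA-binding protein of the large subunit, and its copy *Rpl22l1* moved in opposite directions, with r = -0.70 over 18 rats and -0.56 without rats 11 and 57. *Rpl22l1* also had the lowest weight of the 73 genes on the first axis (-0.098), on which 56 genes were weighted above 0. An r under 0 was found in 28.7% of all ribosomal pairs. *Rpl22* ranged from 634 to 821 (median 655) in naïve rats, from 564 to 800.0 (median 699) in bPYX+GFP rats and from 658 to 995 (median 728) in bPYX+NT3 rats. *Rpl22l1* ranged from 1173 to 1693 (median 1320.2) in naïve rats, from 915 to 1581 (median 1437) in bPYX+GFP rats and from 1004 to 1492 (median 1203) in bPYX+NT3 rats. Thus rat 11 was the highest rat for *Rpl22*, and rat 57 the lowest for *Rpl22l1*. For *Rpl36a* with *Rpl36al1* r was 0.65, for *Rpl39* with *Rpl39l1* 0.21 and for *Rps27* with *Rps27l* -0.12, given as descriptions. For the other pairs, *Rpl3* and *Rps4x* had from 2709 to 6532 read-pairs per rat while *Rpl3l* and *Rps4y2* were not tested. In *Rps4x* the log2 fold change was 0.01 ± 0.07 for GFP against naïve and -0.09 ± 0.08 for NT3 against GFP, and in *Rps27a*, whose product is made fused to ubiquitin, it was 0.02 ± 0.07 and -0.07 ± 0.07, with an adjusted p of 0.851 or more in edgeR.

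**Figure D5:**
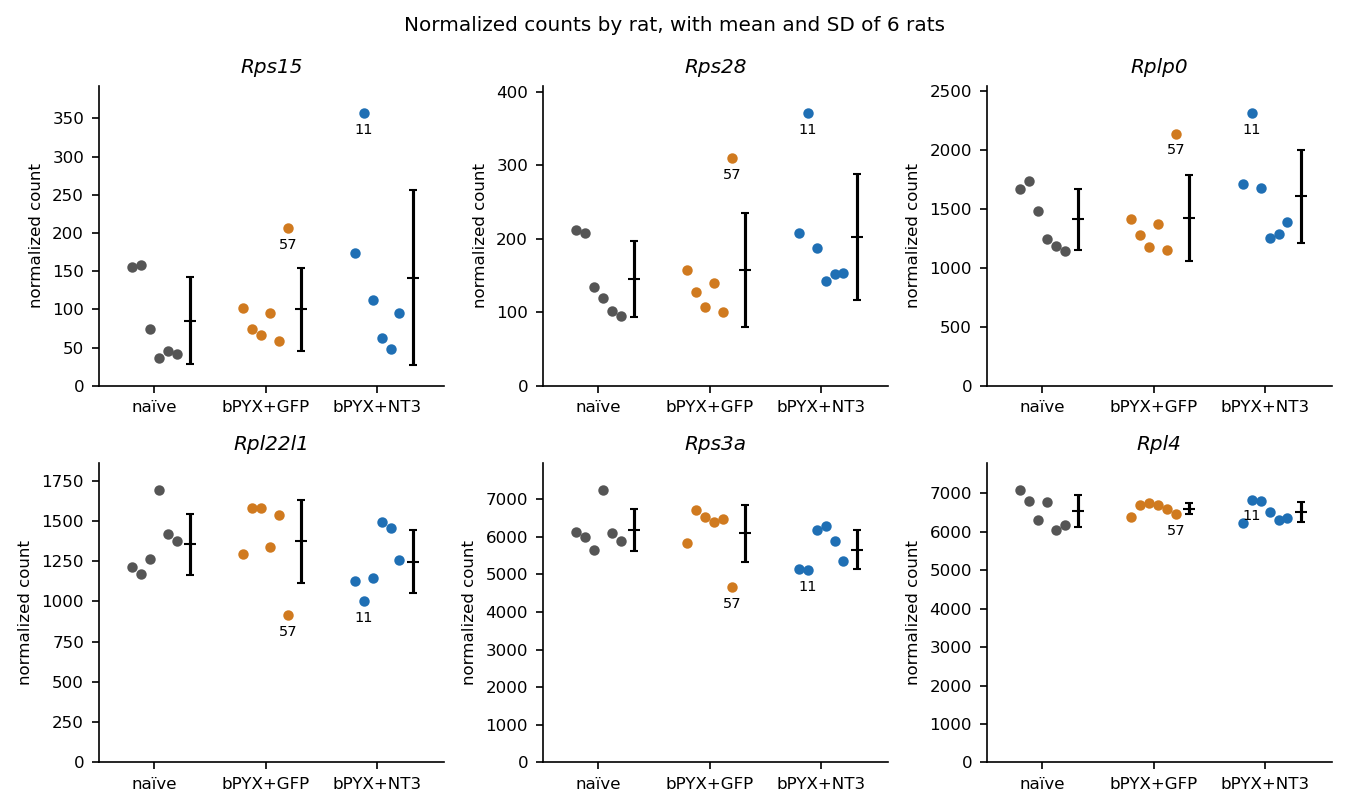
Normalized counts of 6 ribosomal protein genes in each rat, by group, with the mean and SD of 6 rats beside the points; rats 11 and 57 are numbered. They are the highest of their groups for *Rps15*, *Rps28* and *Rplp0* and the lowest for *Rpl22l1*, whereas all rats are close for *Rpl4*.

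Other genes of the translation apparatus differed in how far rats 11 and 57 stood from the other rats. For 18 translation factors and other mRNAs known for a 5′ TOP, the median was -0.041 from that of the other bPYX+NT3 rats in rat 11 and -0.13 from that of the other bPYX+GFP rats in rat 57 (log2). For 29 ribosome biogenesis genes these values were -0.035 and -0.063, and for 12 genes of mTOR signalling 0.36 and 0.55. For 63 mitochondrial ribosomal protein genes they were 0.088 and -0.027 and for 67 subunits of oxidative phosphorylation 0.22 and 0.097. Members of a list did not all move alike. The median r within a list was 0.046 for translation factors and 5′ TOP mRNAs, -0.13 for ribosome biogenesis and 0.50 for mTOR signalling. It was 0.068 for mitochondrial ribosomal proteins and 0.33 for oxidative phosphorylation. Against their group means in rats 11 and 57, *Eef2* was at 0.89 and 0.90 but *Eif3e* at -0.36 and -0.54 (log2). Of the mTOR genes, *Akt1* was at 1.01 and 1.11 but *Rps6kb1* at -0.46 and -0.39. These genes were named after their values were seen. The differences between these lists were not tested.

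Few genes of these lists passed at an unadjusted p under 0.05, and 0 had an adjusted p under 0.05 in edgeR. Of the 18 translation factors and 5′ TOP mRNAs, *Eif4b*, a helper of the initiation helicase, was higher in bPYX+GFP than in naïve rats (log2 fold change 0.11 ± 0.04, SE), beside 3.25% of all genes called. Of the 29 biogenesis genes, *Bop1*, needed for large subunit assembly, was higher in bPYX+NT3 than in naïve rats (0.58 ± 0.24). *Ltv1*, an assembly factor of the small subunit, was lower in the same comparison (-0.16 ± 0.07), beside 6.01% of all genes called. *Ltv1* was also lower in bPYX+NT3 than in bPYX+GFP rats (-0.16 ± 0.07), beside 1.73% called. Of the 12 mTOR genes, *Rptor*, the mTORC1 subunit raptor, was higher in bPYX+NT3 than in naïve rats (0.24 ± 0.11). Among 64 mitochondrial ribosomal protein genes 0 passed in this comparison, and among 67 oxidative phosphorylation subunits 5 were higher and 0 lower, beside 361 higher and 342 lower of 11693 genes in all (6.01%). The adjusted p was 0.607 or more in each of these cases.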

How the data were processed

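Poly(A) RNA of 18 rats was analysed. The authors used TopHat2 for alignment (genome Rnor_6.0), Picard to reduce each set of duplicates to 1, and HTSeq to obtain counts of read-pairs on RefSeq identifiers. The deposited counts are whole numbers without normalization. Removing duplicates and reads that match several locations can lower the counts of short, abundant or copied genes. The labels name bcl2fastq 1.8.4. The counts per rat and the table of all rats were identical in 18 of 18 rats, and the rat numbers and sample names that head the table gave the groups. Of 15075 identifiers, 14193 matched a RefSeq symbol. Read-pairs outside exons, in introns or between genes (30.8% to 34.6% of those in the counts), ambiguous ones (2.79% to 3.41%) and those on several locations (19.0% to 22.3%) stayed out of library sizes. Depth was 10057787 to 16002410 read-pairs on genes per rat, and intervals for a gene with few of them are wide.

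Each pair of groups was fitted in edgeR 4.0.16 (R 4.3.3) with TMM normalization and the two-sided quasi-likelihood test, over genes with more than 10 read-pairs in at least 6 of 12 rats, and p-values were adjusted over all of these genes by the Benjamini-Hochberg method. A call is an unadjusted p under 0.05. The standard error (SE) is the absolute log2 fold change divided by the square root of F, and 95% intervals use the t quantile at edgeR's total degrees of freedom. To give normalized counts, each count was divided by the library size after TMM scaling and multiplied by the mean of these sizes. Log2 CPM used a prior count of 2. Correlations used 100000 permutations. Alternatives were the likelihood ratio test, DESeq2 1.42.0, other scalings and filters, 1 fit over the 3 groups, the groups of the recorded titles, the share outside exons as a covariate and leaving out each rat. Another 2, the replicate number as a block and leaving out rats 11 and 57, were chosen after seeing the data. The fits were tested on simulated counts. Descriptions were computed with Python 3.11.15 (numpy 2.4.6, pandas 2.3.3, matplotlib 3.10.9, scipy 1.17.1).

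The genes and lists were chosen with earlier results of these data known. Named genes are the 3 smallest p in each comparison, the 5 largest and 5 smallest SDs, the genes not tested, the stalk genes, pairs of copies, *Rps3* and *Rps20*. Further genes are named as chosen later. A ranking per coding length was not made, since no lengths were used here. Gene names, pseudogene loci and promoters are from RefSeq's GRCr8 tables, which are not the build of the counts. The rats are separate animals. Small RNAs were not analysed here, and some items are not reported here.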

Additional observations from a re-analysis of the deposited data

Results flagged for a closer look

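Within a group of 6 rats, a rat was marked where its distance to the nearest other rat exceeded Dixon's 95% critical share of the range of the group. Of 93 groups looked at (31 values in 3 groups), 9 were marked. Chance marks about 1 group in 20 where values are unselected and independent. These genes were chosen partly by their SD and p in the same data and share their libraries. The 9 therefore cannot be weighed against that share. Rat 57 accounted for 5 and rat 11 for 3. In the bPYX+GFP group, rat 57 was far above the others for *Rpl35* (ratio 0.790; log2 CPM 6.08, next rat 5.25) and *Rplp0* (0.667; 7.38, next 6.78), and far below them for *Rps13* (0.663; 6.23, next 6.54), *Rpl39* (0.636; 5.32, next 5.79) and *Rpl22l1* (0.633; 6.16, next 6.65). In the bPYX+NT3 group, rat 11 was far above the others for *Rpl3* (0.779; 8.63, next 8.29), *Rpl22* (0.660; 6.28, next 5.88) and *Rpl8* (0.642; 3.40, next 2.35). In the naïve group, rat 44 was far above the others for *Rps27a* (0.664; 8.22, next 8.07). The share of read-pairs on ribosomal protein genes and their median level per rat were not marked in any of the 3 groups. Outside the table of the series, the counts per rat also list the pseudogene *Rps7-ps20*, with 1 to 5 read-pairs per rat, above the 3 read-pairs that a count of 0 allows in the rat with most.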

How the results depend on the processing

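The number of ribosomal protein genes with an unadjusted p under 0.05 was 0 in each comparison with edgeR's likelihood ratio test, DESeq2, 2 other scalings, 2 other filters and 1 fit over the 3 groups. Grouping by the recorded titles gave 3 between bPYX+NT3 and naïve rats, all lower (*Rplp1* -0.24, *Rps21* -0.23 and *Rps23*), and the median log2 fold changes turned to -0.068, -0.14 and -0.050 (bPYX+GFP against naïve, bPYX+NT3 against naïve, bPYX+NT3 against bPYX+GFP). All genes called were then 174 and 330 in the first and second of these. With the share outside exons as a covariate, 1 of 73 ribosomal protein genes (*Rpl23a*, lower) was called between the injured groups, beside 225 of 11623 genes in all, the medians of bPYX+NT3 against naïve and bPYX+GFP rats were -0.017 and -0.016, and 848 genes were called between bPYX+GFP and naïve rats. Without rats 11 and 57 the counts were 10 ribosomal protein genes and 1462 genes in all between the injured groups, 595 and 365 genes in all against naïve rats, and the median between bPYX+GFP and naïve rats was -0.020. No filter gave 315 and a filter of 50 read-pairs 133 genes between the injured groups. The causes were not tested.

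Leaving out 1 rat gave 0 to 0, 0 to 1 and 0 to 21 ribosomal protein genes in the same order of comparisons, medians of -0.020 to 0.050, 0.0085 to 0.14 and -0.019 to 0.11, and 272 to 595, 365 to 1387 and 95 to 2291 genes in all. The lowest and highest numbers of all genes came without rats 5 and 57 (bPYX+GFP against naïve), 11 and 23 (bPYX+NT3 against naïve) and 11 and 57 (between the injured groups). The median correlation was 0.58 to 0.66 when 1 rat was left out (lowest without rat 11) and 0.79 with library size alone. Of 1985 values of 29 named genes under an alternative, 1958 stayed on the same side of an unadjusted p of 0.05 (25 of the others were gained in the same direction and 2 in the other).

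With the replicate numbers of the labels as a replicate block, 26 ribosomal protein genes (24 higher and 2 lower) and 2962 of 11693 genes were called between bPYX+NT3 and naïve rats, and 130 genes between the injured groups. The numbers are not a stated pairing: r between the deviations of same-numbered rats ran from -0.31 to 0.55 between bPYX+NT3 and naïve rats, with 5 of 6 over 0.1, and 3 of 6 bPYX+NT3 rats were closest to the naïve rat of their own number. The 8 genes that were not tested had too few read-pairs for a comparison at this depth, and a 2-fold change lay inside the 95% interval of *Rps15*, *Rpl36* and *Rpl39l1* in each comparison.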
